A study of Mus musculus with 32 samples.

Results

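The genes described here encode the Wnt ligands, their receptors and the secreted or membrane proteins that modulate them. Membership follows a rule on gene symbols. Of 23420 genes in the count table, 48 were members: 19 Wnt ligands, 10 Frizzled receptors, the co-receptors Lrp5 and Lrp6, 4 R-spondins, their 3 receptors Lgr4, Lgr5 and Lgr6, 4 secreted Frizzled-related proteins, 4 Dickkopf proteins, Wif1 and Axin2. Frzb, also known as Sfrp3, does not carry a symbol of these families and was counted with the other pathway genes.

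RNA was sequenced in bulk from the spinal cord of C57BL/6J mice aged 8 to 12 weeks, from segments reaching about 2 to 3 mm to either side of the lesion. Sham cords were collected 3 and 35 days after the operation (n = 3 each). Cords with spinal cord injury and a control treatment were collected at 3, 14 and 35 days (n = 3, 3 and 4), those with Gsx1 at 3, 14 and 35 days (n = 3, 3 and 4) and those with Nkx6.1 at 3 and 35 days (n = 3 each). Both factors are homeodomain proteins that act in progenitors of the embryonic cord, and the series asks, by its title, about locomotor recovery with Gsx1. The sources used here do not give the injury method, the vector or target cells of either factor, the control treatment or the sex of the mice. The labels name a control treatment for injured cords only, so the lesion and that treatment cannot be told apart when injured controls are set against sham. There was no sham group at 14 days.

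Wnt proteins are lipid-modified secreted ligands that bring a Frizzled receptor together with Lrp5 or Lrp6 on the receiving cell. In the canonical branch this stabilises beta-catenin, which acts with TCF/LEF factors on target genes, among them the feedback inhibitor Axin2, while other branches act on cell polarity and movement. R-spondins bind Lgr receptors and keep Frizzled proteins at the cell surface, whereas the secreted Frizzled-related proteins and Wif1 bind Wnt proteins outside the cell and most Dickkopf proteins bind Lrp5 and Lrp6. In the embryonic cord, Wnt signals from the dorsal midline pattern progenitors, and Wnt signals also guide growing axons.

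Of the 48 members, 42 passed the filter on low counts. Dkk1, Dkk4, Wnt1, Wnt3a, Wnt8a and Wnt9b did not, with 0 to 7 counts in any library and 45, 7, 20, 3, 11 and 55 counts over all 32 libraries. Library totals ranged from 10.8 to 19.5 M counts (median 14.6 M). Levels are given as CPM, a gene's counts scaled to a common library size with edgeR's TMM factors, and levels of different genes are compared only after division by exon length in kilobases (kb).

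On that length-scaled basis the uninjured cord held far more Dkk3 than any other member. Its mean level in sham cords was 43.8 CPM per kb at 3 days and 46.9 CPM per kb at 35 days. Dkk3 is a divergent Dickkopf protein that is abundant in neurons. At 3 days the next levels in sham cords were 9.38 CPM per kb for Sfrp1, 8.63 for Fzd1, 7.94 for Fzd3, 6.6 for Sfrp5, 6.53 for Lrp6 and 6.13 for Lgr4. The leading ligands were Wnt7a and Wnt7b, both near 5.9 CPM per kb (5.92 and 5.91), followed by Wnt3 at 3.55 and Wnt5a at 2.8. Wnt7a and Wnt7b are the ligands known for their action on the vessels of the central nervous system. In injured control cords at 35 days Dkk3 was first at 38.0 CPM per kb, followed by Sfrp4 at 16.9, Sfrp5 at 14.3 and Fzd1 at 9.06. The place of Sfrp4 rested on replicate 4: without it Sfrp4 was at 8.4 CPM per kb, below Sfrp5 (15.1) and Fzd1 (9.11). Sfrp4 had been at 0.459 CPM per kb in sham cords of the same day. Summed over members of a role, the 19 ligands together held 22.8 ± 0.871 CPM per kb in sham cords at 35 days (SD, n = 3) and 36.0 ± 10.5 CPM per kb in injured control cords (SD, n = 4). These levels describe whole tissue, in which fewer cells of a type and less RNA per cell cannot be told apart.

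**Figure D1:**
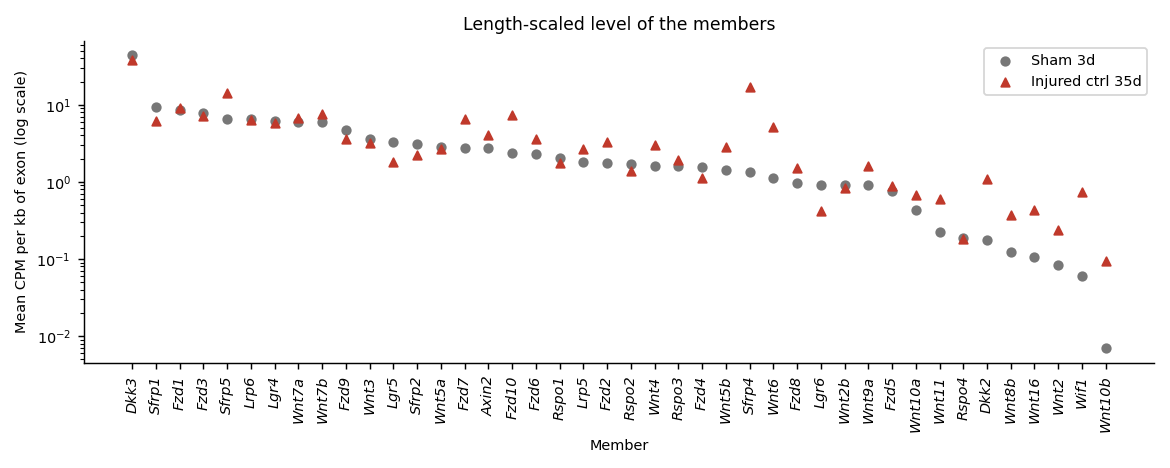
Mean CPM per kb of exon on a log axis for the 42 members that passed the filter, ordered by their level in sham cords at 3 days (grey circles, n = 3) with injured control cords at 35 days beside them (red triangles, n = 4). Dkk3 leads in both groups, and Sfrp4, Dkk2, Wnt6, Wnt16 and Wif1 are among the members whose triangle lies far above the circle.

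Promoter sequence is shown for Fzd7, Lgr6 and Wnt6, which were called in 4, 3 and 3 of the 15 comparisons. They were the most often called members with 1 promoter entry whose bases lay clear of the GENCODE gene. Fzd7 rose and Lgr6 fell wherever they were called. Wnt6 rose against sham at 35 days in injured control and Gsx1 cords and fell with Nkx6.1 at 3 days. The 250 bases before the RefSeq start (GRCm38.p6) are given; 31 of the 48 members have an entry. For Lgr6 and Wnt6 the GENCODE gene begins at that same start, and for Fzd7 it begins 277 bases further downstream. Fzd7 is on the plus strand at chr1:59481897-59482146, Lgr6 on the minus strand at chr1:135105277-135105526 and Wnt6 on the plus strand at chr1:74771642-74771891. Capitals mark the only match to the core forms of the TCF/LEF motif, and each sequence reads 5′ to 3′ on its gene's strand.
Fzd7: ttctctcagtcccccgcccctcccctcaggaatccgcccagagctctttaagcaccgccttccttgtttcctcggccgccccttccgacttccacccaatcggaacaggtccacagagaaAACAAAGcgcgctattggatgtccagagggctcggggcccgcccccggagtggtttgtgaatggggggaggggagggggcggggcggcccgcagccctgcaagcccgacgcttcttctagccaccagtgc
Lgr6: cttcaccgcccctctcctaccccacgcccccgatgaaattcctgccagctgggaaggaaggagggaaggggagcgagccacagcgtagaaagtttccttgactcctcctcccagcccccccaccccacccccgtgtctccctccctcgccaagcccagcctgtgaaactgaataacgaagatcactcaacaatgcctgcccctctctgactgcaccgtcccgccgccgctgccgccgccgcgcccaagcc
Wnt6: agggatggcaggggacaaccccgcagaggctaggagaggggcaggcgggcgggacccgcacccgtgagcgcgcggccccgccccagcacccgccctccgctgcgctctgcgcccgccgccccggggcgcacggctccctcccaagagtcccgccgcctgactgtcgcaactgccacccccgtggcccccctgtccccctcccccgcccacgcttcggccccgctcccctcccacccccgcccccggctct
The forms searched on both strands were CTTTGAA, then CTTTGAT, then CTTTGTA and finally CTTTGTT; they share their first 5 letters, so a single place holds at most 1 of them on a strand. The Fzd7 match, 130 bases before the RefSeq start, is CTTTGTT read on the opposite strand. Only those 250 bases of each entry were searched. Among the 34 promoter entries of members 4 held at least 1 of these forms, those of Fzd7, Wnt5b, Wnt11 and Dkk1. Over the same 250 bases of all 32851 entries 14.8% did. Binding of a TCF/LEF factor was not measured.

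Facts of the whole series bear on several results. Xist, the RNA of the inactive X chromosome, exceeded 100 CPM in 7 of the 32 libraries, spread over 5 groups, and 2 of these (1 from sham at 3 days, and replicate 4 of the injured controls at 35 days) also held the Y-linked Ddx3y. Gsx1 itself had 0 to 10 counts in every library of the series, at most 0.665 CPM, and Nkx6-1 lay between 3.62 and 12.7 CPM, with 3.62 to 6.11 CPM in Nkx6.1 cords and 7.6 to 8.14 CPM in sham cords at 3 days, so neither transcript checked the treatment labels. Summed neuronal markers (12 genes) ran from 7852 to 8956 CPM in sham cords and from 3029 to 6450 CPM in injured control cords over all times. Summed markers of meningeal and perivascular fibroblasts (12 genes) ran from 659 to 1381 CPM in sham cords. In injured control cords they ran from 1580 to 3456 CPM at 3 days, 4365 to 4992 CPM at 14 days and 1264 to 5812 CPM at 35 days. Injured control replicate 4 at 35 days stood apart, with the highest fibroblast sum and the lowest neuronal sum of its group. Skeletal muscle markers, at 29 to 211 CPM elsewhere, summed to 378 CPM in injured control replicate 3 and 624 CPM in Nkx6.1 replicate 2 at 3 days. Of 8 markers of sensory ganglia, Mrgprd was at 0 counts in all 32 libraries, and Scn10a, Scn11a and Trpv1 were at 0 in 20, 15 and 9 libraries and at most 0.332 CPM. Prph (22.1 to 162 CPM), Calca (10.4 to 89.1 CPM), Avil and Isl2 were present in all 32. Marker values are given beside the comparisons below, and their part in the results was not tested.

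The first comparison set injured control cords against sham cords at 3 days, the acute stage. Here the co-receptor Lrp5 and the receptors Fzd7 and Fzd8 rose, and the secreted inhibitor Wif1 rose from a trace. The R-spondin Rspo2, the Lgr5 receptor, the inhibitor Sfrp1, Dkk3 and Fzd9 fell. Of 15 ligands tested 1 was called, Wnt2, which rose. A member was called at an adjusted p under 0.05 (edgeR's quasi-likelihood test with Benjamini-Hochberg adjustment over 16314 genes). By that rule 10 of 42 members (23.8%) were called, 5 higher and 5 lower, beside 35.5% of all genes (19.5% higher and 16% lower). The median log2 fold change was 0.05 over the members and 0.01 over all genes.

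Lrp5 (chromosome 19, 3584828 to 3686564, minus strand, GRCm38) encodes the co-receptor that the Wnt-Frizzled complex engages at the membrane. Sham cords at 3 days had 17.3, 16.8 and 18.3 CPM and injured control cords 43.3, 30.9 and 35.2 CPM. Every injured library lay well above every sham library. The log2 fold change was 1.06 ± 0.16 (SE; adjusted p = 1.65e-05), a 2.09-fold rise. Its relative Lrp6 had a log2 difference of 0.21 and was not called. Among the Frizzled receptors, Fzd7 (chromosome 1, 59482424 to 59486955, plus strand) was at 12.4, 9.92 and 15.0 CPM in sham and 30.7, 23.0 and 21.0 CPM in injured control cords. The groups did not overlap, and the log2 fold change was 0.99 ± 0.29 (adjusted p = 0.00966). Fzd8 rose by 0.62 ± 0.24 on the log2 scale (adjusted p = 0.0439), a call lost in 7 of 14 alternatives, among them the replicate block and 5 of the 6 libraries left out in turn. Fzd9, a receptor of neural progenitors and neurons, fell by 0.71 ± 0.24 (adjusted p = 0.0244), although sham replicate 2 at 7.06 CPM lay inside the injured range of 5.66 to 7.17 CPM and the call was lost in 6 of 14 alternatives. The other 7 Frizzled receptors were not called.

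Of the 4 R-spondins and 3 Lgr receptors, 1 each was called, both lower. Rspo2 (chromosome 15, 43020794 to 43170826, minus strand) encodes a secreted amplifier of Wnt signals. It was at 6.61, 10.5 and 9.37 CPM in sham and at 3.1, 4.49 and 3.16 CPM in injured control cords. All injured libraries were lower than all sham libraries, and the log2 fold change was -1.29 ± 0.27 (adjusted p = 0.000806). Lgr5 (chromosome 10, 115450311 to 115587780, minus strand), an R-spondin receptor best known from stem cells of the gut, was at 32.5, 33.8 and 34.3 CPM in sham and 15.7, 14.5 and 18.8 CPM in injured control cords. The 2 groups were far apart, with a log2 fold change of -1.04 ± 0.28 (adjusted p = 0.00562). The other 3 R-spondins, Lgr4 and Lgr6 were not called.

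Among the Dickkopf and secreted Frizzled-related genes and Wif1, Dkk3 (chromosome 7, 112116017 to 112159057, minus strand) had the smallest adjusted p. Its level was 144, 139 and 158 CPM in sham and 74.5, 81.7 and 74.7 CPM in injured control cords. The fall, to 0.523 of the sham level, had a log2 fold change of -0.93 ± 0.13 (adjusted p = 8.26e-06). Sfrp1 (chromosome 8, 23411502 to 23449632, plus strand), which binds Wnt proteins outside the cell, was at 40.0, 41.6 and 41.4 CPM in sham and 17.3, 18.9 and 24.8 CPM in injured control cords. It too fell in every injured library, by 1.01 ± 0.24 on the log2 scale (adjusted p = 0.00228). Neuronal markers fell beside Dkk3, Sfrp1, Rspo2, Lgr5 and Fzd9, with 10 of 12 called lower. Wif1 (chromosome 10, 121033960 to 121100650, plus strand), another secreted Wnt-binding protein, was at 0.284, 0.0793 and 0.0684 CPM in sham cords, 6 counts in all, and at 5.13, 0.749 and 8.85 CPM in injured control cords. The injured libraries were unequal but all higher, and the log2 fold change was 5.0 ± 1.11 (adjusted p = 0.00123). The muscle marker sum was 378 CPM in replicate 3, the library with the highest Wif1 level, and 68 CPM in replicate 1. Wnt2, a ligand known from vascular and mesenchymal tissue, had a log2 fold change of 2.35 ± 0.9 (adjusted p = 0.0428) on 8 counts in sham cords. Its level in replicate 2 of the injured controls (0.125 CPM) was inside the sham range of 0.0793 to 0.355 CPM, and the call was lost in 6 of 13 alternatives. A fit without libraries high in Xist leaves 1 sham library, so its count of calls is not given. The called members kept their direction in it. With each library left out in turn 7 to 11 members were called, and the number of all genes called in those fits is not given here. Beside these results fibroblast markers rose (9 of 12 higher, 1 lower), as did endothelial markers (8 of 10).

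**Figure D2:**
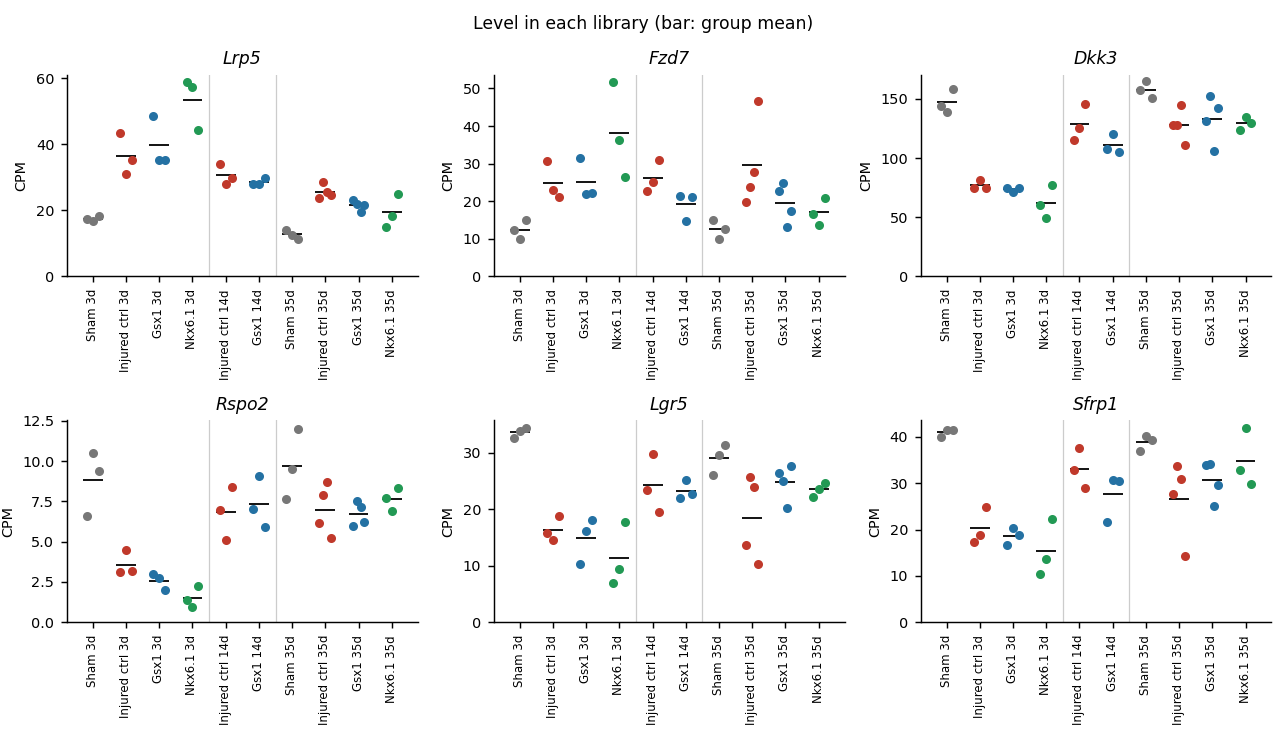
CPM of Lrp5, Fzd7, Dkk3, Rspo2, Lgr5 and Sfrp1 in each of the 32 libraries, 1 point per library and a bar at the group mean, for sham (grey), injured control (red), Gsx1 (blue) and Nkx6.1 (green) cords at 3, 14 and 35 days. At 3 days all injured libraries lie above sham for Lrp5 and Fzd7 and below sham for the other 4 genes.

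The second comparison made the same contrast at 35 days, the chronic stage. Of 15 ligands 6 rose, Wnt4, Wnt5b, Wnt6, Wnt9a, Wnt11 and Wnt16. Others that rose were the inhibitors Sfrp4, Sfrp5, Dkk2 and Wif1, 5 Frizzled receptors, Lrp5 and the feedback inhibitor Axin2. Lgr6, Lgr5 and Fzd9 fell. By the same test 20 of 42 members (47.6%) were called, 17 higher and 3 lower, beside 36.8% of all genes (21.3% higher and 15.5% lower). The median log2 fold change was 0.37 over the members and 0.04 over all genes. Without injured control replicate 4, 11 members were called, and over all libraries left out in turn 11 to 23 were. The number of all genes called in those fits is not given here. Without the libraries that held both high Xist and Ddx3y, replicate 4 among them, 11 members were called beside 3178 of all genes. The main fit called 6009 of all genes. Lrp5, Fzd7, Lgr6, Wnt4, Wnt6, Sfrp4 and Dkk2 kept their call in each of the 15 alternatives.

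Wnt6 (chromosome 1, 74771892 to 74785322, plus strand), a ligand known from epithelia, was at 0.704, 0.339 and 0.574 CPM in sham cords and at 0.796, 4.72, 10.1 and 29.6 CPM in injured control cords. Replicate 1 was only just above sham and replicate 4 was far above the rest. The log2 fold change was 4.36 ± 0.97 (adjusted p = 0.00139). Wnt4 (chromosome 4, 137277489 to 137299726, plus strand), a ligand known from kidney and gonad development, was at 2.19, 2.04 and 2.38 CPM in sham and at 5.97, 4.18, 8.26 and 31.6 CPM in injured control cords. Again no injured library reached down to sham and replicate 4 was the highest, with a log2 fold change of 2.5 ± 0.55 (adjusted p = 0.00127). Summed markers of meningeal and perivascular fibroblasts were at 671, 659 and 732 CPM in sham and 1264, 2089, 2341 and 5812 CPM in injured control cords. Their part in the Wnt6 and Wnt4 results was not tested.

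Wnt9a, a ligand of joint and skeletal development, was at 1.41, 2.04 and 1.72 CPM in sham and 3.58, 4.12, 5.16 and 8.33 CPM in injured control cords, with no overlap and a log2 fold change of 1.62 ± 0.42 (adjusted p = 0.00481). Wnt5b, a ligand of the beta-catenin-independent branch, rose by 1.44 ± 0.32 (adjusted p = 0.00134). Its close relative Wnt5a had a log2 difference of 0.28 and was not called. Wnt16 had 5 counts in all in the sham cords and was at 0.159, 1.69, 0.664 and 5.13 CPM in injured control cords, a log2 fold change of 3.73 ± 1.22 (adjusted p = 0.0194). The lowest injured library overlapped the sham range for Wnt16. Its call was lost in 5 of 14 alternatives: with a replicate block, without libraries of mixed sex, and without sham replicate 1, sham replicate 2 or injured control replicate 4 (adjusted p up to 0.139). Wnt11 rose by 1.59 ± 0.63 (adjusted p = 0.0481), but the groups overlapped. Of the 4 injured libraries 3 were at 1.03 to 1.62 CPM, beside a sham range of 0.492 to 1.27 CPM. Without replicate 4 the adjusted p was 0.357. The ligands with the highest levels per kb in sham cords, Wnt7a, Wnt7b and Wnt3, were not called at either time.

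At the receptors, Lrp5 was at 14.2, 12.6 and 11.4 CPM in sham and 23.9, 28.5, 25.6 and 24.8 CPM in injured control cords at 35 days. The 4 injured libraries were close to one another and all above sham, with a log2 fold change of 1.01 ± 0.15 (adjusted p = 2.14e-05). Fzd7 was at 15.0, 9.84 and 12.6 CPM in sham and 19.7, 23.9, 27.9 and 46.8 CPM in injured control cords, again without overlap (1.24 ± 0.28 on the log2 scale, adjusted p = 0.00146). Fzd10, a receptor of the dorsal embryonic cord, was at 8.84, 8.4 and 8.86 CPM in sham and 29.2, 11.3, 16.6 and 38.1 CPM in injured control cords. It rose by 1.45 ± 0.4 (adjusted p = 0.00664), whereas at 3 days its log2 difference was -0.07. Fzd2, Fzd8 and Fzd6 rose by 1.73, 0.77 and 0.82 on the log2 scale, with adjusted p of 0.00563, 0.0111 and 0.0229. Without replicate 4 these 3 receptors were not called, at an adjusted p of 0.0508 to 0.0884. Fzd9 fell by 0.75 ± 0.22 (adjusted p = 0.0113), and its adjusted p was 0.0557 without that replicate.

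Lgr6 (chromosome 1, 134983301 to 135105276, minus strand), an R-spondin receptor known from skin stem cells, was at 11.5, 10.1 and 8.94 CPM in sham and 1.91, 4.25, 4.06 and 1.26 CPM in injured control cords at 35 days. All 4 injured libraries were under every sham library, and Lgr6 fell to 0.284 of the sham level (log2 fold change -1.82 ± 0.35, adjusted p = 0.000291). Lgr5 fell by 0.65 ± 0.26 (adjusted p = 0.0485). It lost its call in 10 of 15 alternatives, among them each sham library left out. Lgr4 and the 4 R-spondins were not called. Rspo2, which had fallen at 3 days, had a log2 difference of -0.47 at 35 days.

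The largest fold among the inhibitors was that of Sfrp4 (chromosome 13, 19623104 to 19632994, plus strand), a secreted Wnt-binding protein of connective tissue. Sham cords at 35 days had 1.41, 2.46 and 1.89 CPM, and injured control cords 5.1, 66.6, 33.6 and 177 CPM. The injured libraries spanned a wide range but all exceeded sham, with a log2 fold change of 5.2 ± 1.05 (adjusted p = 0.00056). Dkk2 (chromosome 3, 132085292 to 132180304, plus strand), which binds Lrp5 and Lrp6, was at 0.235, 0.0848 and 0.492 CPM in sham, 10 counts in all, and at 8.36, 1.08, 2.88 and 3.87 CPM in injured control cords. Its highest library was replicate 1, the one with the lowest Sfrp4 and the lowest fibroblast marker sum of the group (1264 CPM), and the log2 fold change was 3.85 ± 0.7 (adjusted p = 0.000186). Sfrp5 was at 13.7, 16.2 and 14.3 CPM in sham and 39.7, 16.7, 29.6 and 23.0 CPM in injured control cords (0.89 ± 0.29 on the log2 scale, adjusted p = 0.0198). Replicate 1 was highest for Sfrp5 too, and the call was lost without it, without sham replicate 1 or 3 and in 2 other alternatives. Wif1 rose by 3.4 ± 1.09 (adjusted p = 0.0171) on 6 counts in sham cords, and lost its call in 6 of 14 alternatives, among them the replicate block and leaving out sham replicate 1, sham replicate 3 or injured control replicate 4. Dkk3 and Sfrp1, which had fallen at 3 days, had log2 differences of -0.3 and -0.54 and were not called (adjusted p = 0.0524 and 0.0559), although no injured library of either gene overlapped sham. Axin2, the usual readout of beta-catenin signalling, was at 14.9, 14.2 and 15.4 CPM in sham and 16.7, 17.8, 20.8 and 33.4 CPM in injured control cords. It rose by 0.58 ± 0.2 (adjusted p = 0.0275), and it lost its call in 8 of 15 alternatives, among them the replicate block, each sham library left out and replicate 4 left out (adjusted p = 0.206). Fibroblast markers rose beside these genes (11 of 12 called higher), endothelial markers did (7 of 10), and neuronal markers fell (8 of 12).

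**Figure D3:**
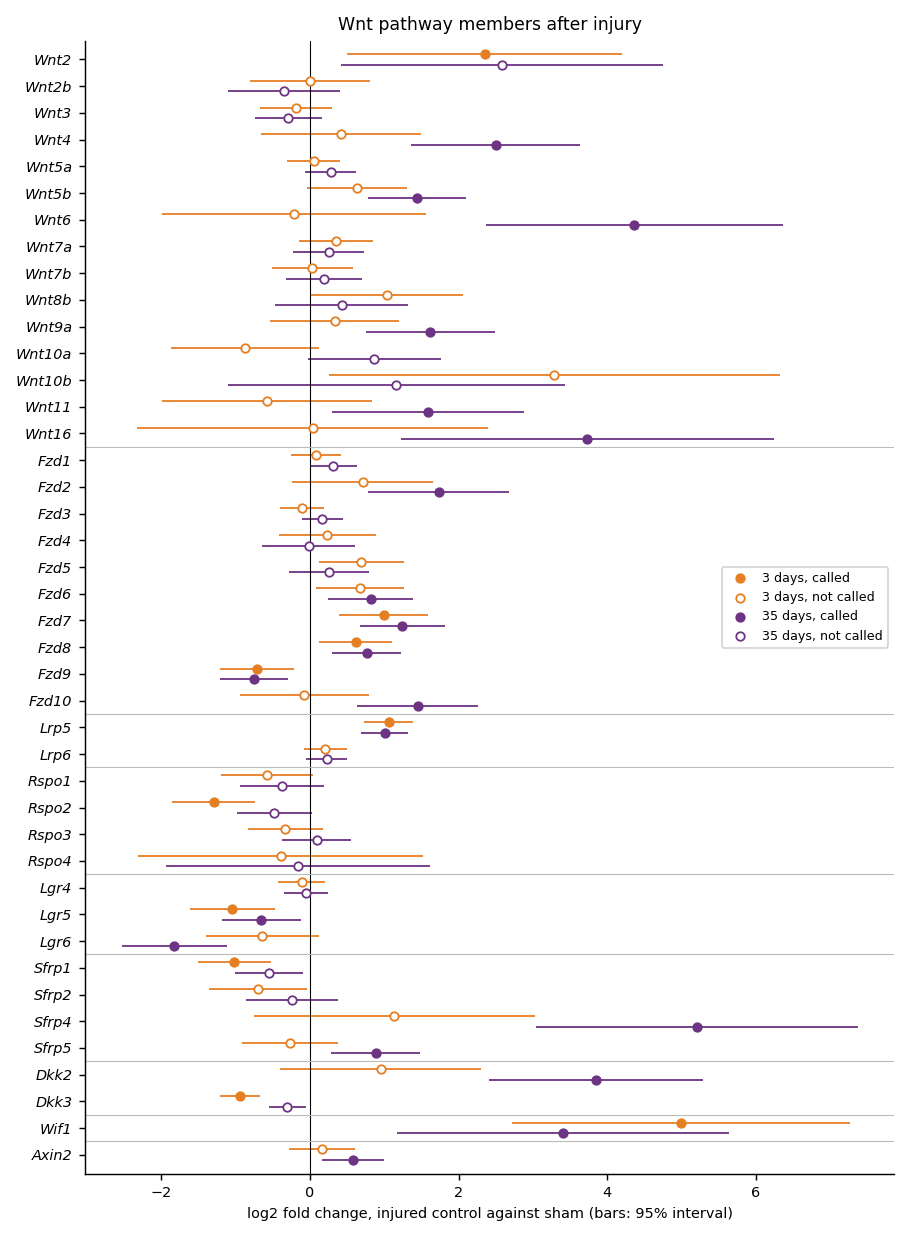
Log2 fold change of injured control against sham cords for the 42 members, with its 95% interval, at 3 days (orange, n = 3 against 3) and 35 days (purple, n = 4 against 3). Filled points passed the test (10 at 3 days and 20 at 35 days), and lines separate the roles from ligands at the top to Axin2 at the bottom.

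**Figure D4:**
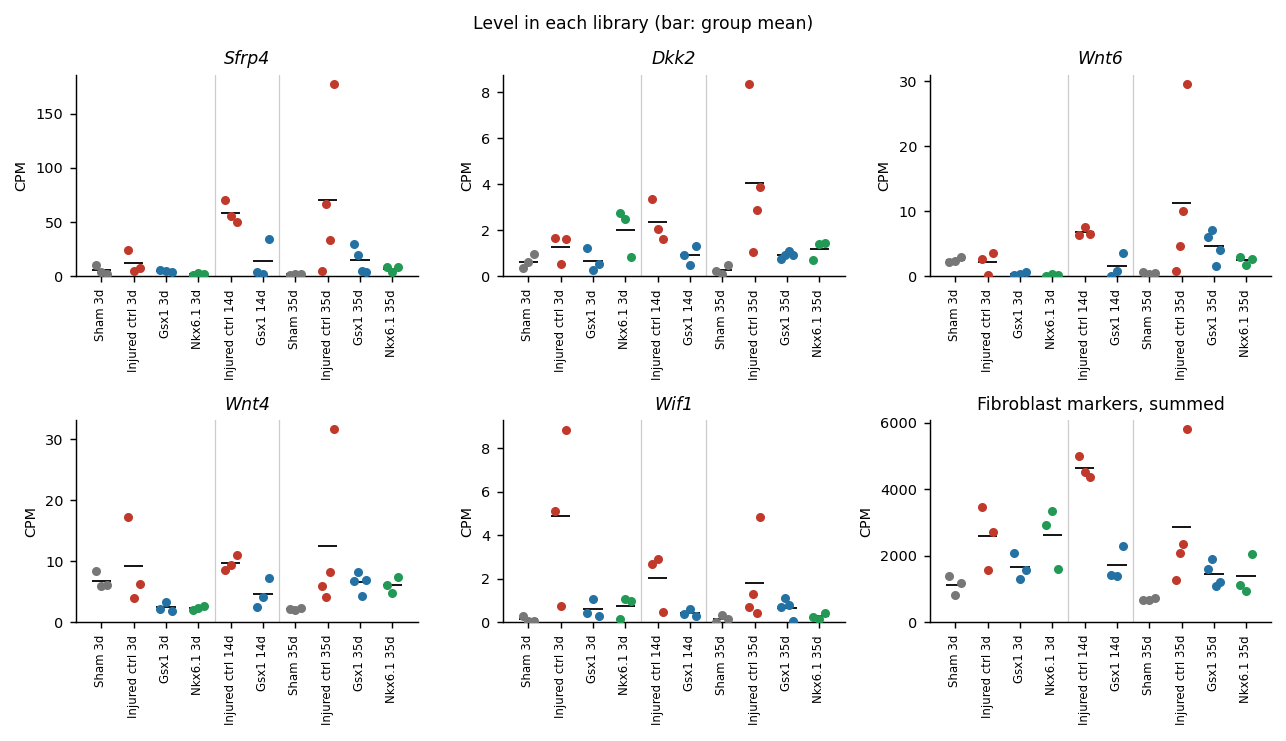
CPM of Sfrp4, Dkk2, Wnt6, Wnt4 and Wif1 in each of the 32 libraries with a bar at the group mean, and the summed CPM of 12 fibroblast markers in the same libraries. Injured control replicate 4 at 35 days is the highest library for Sfrp4 (177 CPM), Wnt6 (29.6 CPM), Wnt4 (31.6 CPM) and the marker sum (5812 CPM), while Dkk2 is highest in replicate 1 (8.36 CPM).

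Whether the injury response itself differed between the 2 times was tested as an interaction. By edgeR's quasi-likelihood test 0 of 42 members were called, beside 0.362% of all genes. At an unadjusted p under 0.05 there were 13 members, beside 1563 of all genes. DESeq2 called 1 member, Wnt6, beside 230 of all genes. Without injured control replicate 1 at 35 days edgeR also called Wnt6 (4.92 ± 1.13, adjusted p = 0.0416). The smallest adjusted p belonged to Wnt6, whose injury effect was 4.58 ± 1.29 larger on the log2 scale at 35 than at 3 days (adjusted p = 0.133), to Dkk3 (0.63 ± 0.18, adjusted p = 0.136) and to Dkk2 (2.9 ± 0.96, adjusted p = 0.238). A call at one time and none at the other is therefore not shown to be a difference between the times. Wnt6 at 3 days was at 2.2, 2.3 and 2.94 CPM in sham and 2.72, 0.25 and 3.54 CPM in injured control cords, so the groups overlapped then. Between the sham groups themselves, 35 against 3 days, 0 members were called, beside 0.00613% of all genes. DESeq2 also called 0 members. At an unadjusted p under 0.05 by edgeR's test there were 5 members, beside 1171 of all genes. Wnt4 had the smallest p of these, with 8.45, 5.95 and 6.08 CPM in sham cords at 3 days against 2.19, 2.04 and 2.38 CPM at 35 days (log2 difference -1.63 ± 0.57, adjusted p = 0.52). The next were Lrp5 (-0.45, adjusted p = 0.537) and Fzd3 (-0.33, adjusted p = 0.666). Summed fibroblast markers were 659 to 732 CPM in sham cords at 35 days and 806 to 1381 CPM at 3 days. Of the 12 markers 0 were called between these groups, and their part in the Wnt4 and Wnt6 values was not tested.

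The course within injured control cords was followed from 3 to 14 to 35 days. Dkk3 rose between 3 and 14 days, and it was the 1 of 42 members called there (3.06% of all genes; 0.644% higher). It went from 74.5, 81.7 and 74.7 CPM to 115, 126 and 146 CPM, with no overlap, a log2 fold change of 0.74 ± 0.13 (adjusted p = 0.00318). Fzd10 (1.41 ± 0.42, adjusted p = 0.0597) and Rspo2 (0.92 ± 0.27, adjusted p = 0.0611) were next and did not pass. DESeq2 called 4 members there, all higher, beside 987 of all genes. Without injured control replicate 1 or replicate 3 at 3 days 2 members were called. Sfrp4 was at 24.2, 5.37 and 7.7 CPM at 3 days and at 70.0, 55.5 and 50.3 CPM at 14 days, where all 3 libraries exceeded those of 3 days, but it was not called (2.24 ± 0.89, adjusted p = 0.159). From 14 to 35 days 0 members were called (1.32% of all genes, 0.858% higher and 0.466% lower). DESeq2 also called 0 members. At an unadjusted p under 0.05 by edgeR's test there were 4 members, beside 3828 of all genes. The smallest p were those of Wnt5a (-0.47 ± 0.16, adjusted p = 0.0983), Lrp6 (-0.34, adjusted p = 0.129) and Fzd6 (0.6, adjusted p = 0.189). Without injured control replicate 2 at 35 days 1 member was called, Lrp6. For the fits of this paragraph with a library left out, the number of all genes called is not given here.

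The question of the series was what Gsx1 does in the injured cord. Against injured controls no member passed the test with Gsx1 at 3, 14 or 35 days. The counts called were 0 of 42 at each time, beside 0% of all 16314 genes each time, by edgeR's quasi-likelihood test. DESeq2 also called 0 members at each time. At an unadjusted p under 0.05 there were 5 members at 3 days, 12 at 14 days and 9 at 35 days. The same threshold held 338, 960 and 3077 of all 16314 genes. A p that misses the threshold does not show that the groups are alike, and the intervals of several members were wide.

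At 14 days, where no sham group exists, the smallest p was that of Wnt9a, at 5.75, 10.6 and 6.53 CPM in injured control and 1.8, 2.18 and 3.99 CPM in Gsx1 cords. The groups did not overlap, and the log2 difference was -1.52 ± 0.42 (adjusted p = 0.304). Wnt3, a ligand of the canonical branch, was at 6.78, 7.2 and 9.82 CPM in injured control and 14.7, 12.3 and 10.4 CPM in Gsx1 cords (0.65 ± 0.24, adjusted p = 0.58). Here the Gsx1 libraries were the higher ones, again with no overlap. Wnt16 was at 3.6, 2.27 and 2.4 CPM in injured control and 0.186, 0.172 and 0.798 CPM in Gsx1 cords (-2.83 ± 1.06, adjusted p = 0.629). Sfrp4 was at 70.0, 55.5 and 50.3 CPM against 4.53, 2.52 and 34.8 CPM, and Wnt6 at 6.43, 7.6 and 6.46 CPM against 0.124, 0.861 and 3.66 CPM. For both genes Gsx1 replicate 3 was the highest of its group and still under every injured control library. Summed fibroblast markers were 2302 CPM in the same library and 1419 and 1405 CPM in the other 2 Gsx1 libraries. In injured controls at 14 days they were 4365 to 4992 CPM. Their part in the differences of Sfrp4, Wnt6 and Wnt16 was not tested.

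At 35 days the 3 smallest p were those of Dkk2, Wnt9a and Sfrp4, each with an adjusted p of 0.194. Dkk2 was at 8.36, 1.08, 2.88 and 3.87 CPM in injured control and 0.762, 0.931, 1.09 and 0.931 CPM in Gsx1 cords, a log2 difference of -2.11 ± 0.53. The groups met at 1.08 and 1.09 CPM. Wnt9a was at 3.58, 4.12, 5.16 and 8.33 CPM in injured control and 0.915, 2.61, 2.0 and 2.25 CPM in Gsx1 cords, without overlap (-1.46 ± 0.37). Sfrp4 was at 29.6, 19.8, 5.09 and 4.44 CPM with Gsx1, under all but the lowest injured control library (-2.26 ± 0.76). Without injured control replicate 2, 3 members were called: Dkk2 (-2.43 ± 0.5, adjusted p = 0.0258), Wnt9a (-1.57 ± 0.4, adjusted p = 0.026) and Lgr6 (1.11 ± 0.35, adjusted p = 0.0439). The number of all genes called in that fit is not given here, so a change particular to these members is not shown. Lgr6 was at 6.4, 6.98, 2.36 and 5.26 CPM in Gsx1 and 1.91, 4.25, 4.06 and 1.26 CPM in injured control cords, with overlap. At 3 days the smallest p were those of Wnt4, Wif1 and Rspo3, with log2 differences of -1.9 ± 0.55, -3.03 ± 0.92 and -0.6 ± 0.25 and an adjusted p of 1 each. Lrp5, the member called most often over the series, had an interval of the log2 difference from -0.19 to 0.44 at 3 days, -0.42 to 0.22 at 14 days and -0.53 to 0.03 at 35 days.

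Set against sham instead, the Gsx1 cords at 3 days had 9 of 42 members called, 3 higher and 6 lower (37.7% of all genes; 20.3% higher and 17.4% lower). These comparisons share the sham libraries with those of the injured controls, so the values are given side by side and not as separate support. Lrp5 at 48.5, 35.2 and 35.4 CPM (1.19 ± 0.16), Fzd7 at 31.4, 22.0 and 22.3 CPM (1.01 ± 0.29) and Fzd6 at 28.8, 17.5 and 18.8 CPM (0.99 ± 0.29) rose in Gsx1 cords, with adjusted p of 3.01e-06, 0.00756 and 0.00919. Dkk3 fell by 1.0 ± 0.13 (adjusted p = 2.59e-06) and Rspo2 by 1.77 ± 0.28 (adjusted p = 2.32e-05). Sfrp1, Lgr5 and Rspo3 fell by 1.14, 1.18 and 0.93 on the log2 scale (adjusted p = 0.000707, 0.00187 and 0.00483). Wnt4 fell by 1.47 ± 0.55 (adjusted p = 0.0371), at 2.21, 3.24 and 1.92 CPM beside 8.45, 5.95 and 6.08 CPM in sham. Its call was lost in 6 of 14 alternatives. Beside these genes 11 of 12 neuronal markers fell, and 10 of 10 macrophage and microglia and 7 of 10 endothelial markers rose. Of 12 fibroblast markers 4 rose and 1 fell. At 35 days 2 of 42 members were called against sham, both higher (9.8% of all genes; 8.63% higher). Lrp5 was at 23.1, 21.9, 19.6 and 21.6 CPM with Gsx1, all above the sham libraries (0.76 ± 0.15, adjusted p = 0.00154). Wnt6 was at 6.0, 7.07, 1.64 and 4.11 CPM (3.09 ± 0.95, adjusted p = 0.0382), also all above sham. Fibroblast markers rose beside them (7 of 12), as did macrophage and microglia markers (8 of 10). Sfrp4 was next at 2.94 ± 1.0 (adjusted p = 0.0622). The number called at 35 days depended on the fit, and so did that of all genes, 1599 in the main fit. DESeq2 called 5 members beside 2054 of all genes, and a fit of these 2 groups alone 11 of 37 beside 3297. A fit without libraries of mixed sex called 6 members beside 1962 of all genes. With replicates as a block 1 member was called beside 1121 of all genes, Wnt6 being the call lost. Wnt6 was also lost without sham replicate 1, 2 or 3 or without Gsx1 replicate 1 or 2, which left 1 call each. Without Gsx1 replicate 4 there were 3. For these fits with a library left out the number of all genes called is not given here.

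Nkx6.1 was measured at 3 and 35 days. Against injured controls at 3 days 0 of 42 members were called by edgeR's quasi-likelihood test (0.337% of all genes, 0.147% higher and 0.19% lower). An unadjusted p under 0.05 was held by 16 members, beside 2984 of all genes. DESeq2 called 5 members, beside 462 of all genes. Rspo2 was the lowest in p, at 1.39, 0.94 and 2.26 CPM with Nkx6.1 beside 3.1, 4.49 and 3.16 CPM in injured controls. The groups did not overlap, and the log2 difference was -1.21 ± 0.29 (adjusted p = 0.0621). Lrp5 was at 58.8, 57.5 and 44.4 CPM with Nkx6.1 against 43.3, 30.9 and 35.2 CPM (0.55 ± 0.15, adjusted p = 0.0816). Here too every Nkx6.1 library was the higher. Wnt4 had a log2 difference of -1.97 ± 0.56 (adjusted p = 0.0857). Without injured control replicate 1, 2 members were called, Lrp5 and Rspo2. Without Nkx6.1 replicate 3 the count was 10: Lrp5 and Fzd6 higher, and Rspo2, Dkk3, Lgr4, Lgr5, Sfrp1, Wnt4, Wnt10a and Rspo3 lower, with adjusted p from 0.00374 for Rspo2 to 0.0495 for Rspo3. The number of all genes called in these fits is not given here. Replicate 3 had a neuronal marker sum of 4585 CPM beside 2193 and 2291 CPM in the other 2 libraries. Its macrophage and microglia sum was 3495 CPM beside 5728 and 6167 CPM.

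Against sham at 3 days the Nkx6.1 cords had 19 of 42 members called, 4 higher and 15 lower, beside 54.3% of all genes (27.9% higher and 26.4% lower). The receptors Lrp5 (1.62 ± 0.16, adjusted p = 1.86e-08), Fzd7 (1.61 ± 0.29, adjusted p = 5.68e-05) and Fzd6 (1.33 ± 0.29, adjusted p = 0.000418) rose, as did the inhibitor Dkk2 (1.62 ± 0.64, adjusted p = 0.0347). The Lgr receptors fell, Lgr5 by 1.55, Lgr6 by 1.38 and Lgr4 by 0.4 on the log2 scale, though Lgr4 lost its call in 7 of 14 alternatives (adjusted p up to 0.173). So did 3 of the 4 R-spondins, Rspo2 by 2.5, Rspo3 by 1.08 and Rspo1 by 0.93. Dkk3 fell by 1.24, and the secreted inhibitors Sfrp1 by 1.4, Sfrp5 by 0.99 and Sfrp2 by 0.97. The ligands Wnt6, Wnt10a and Wnt4 fell by 3.35, 1.83 and 1.54, and the receptors Fzd9 and Fzd3 by 1.14 and 0.55. Wnt6 was at 0.077, 0.403 and 0.215 CPM with Nkx6.1 and 2.2, 2.3 and 2.94 CPM in sham, a gap of several fold in every library. Adjusted p of these 15 falls ran from 5.15e-08 for Dkk3 to 0.0299 for Lgr4. The Nkx6.1 and sham ranges overlapped for Fzd6, Lgr4 and Dkk2. The calls of Dkk2, Rspo1, Sfrp5 and Wnt4 were lost in 6, 5, 4 and 4 of 14 alternatives. Beside these genes 11 of 12 neuronal markers fell, and 10 of 10 macrophage and microglia and 8 of 10 endothelial markers rose. Of 12 fibroblast markers 8 rose and 3 fell, and of 10 muscle markers 9 rose and 1 fell. The muscle sum was 29, 624 and 64 CPM in Nkx6.1 replicates 1, 2 and 3 and 93.6 to 96.7 CPM in sham, so only replicate 2 exceeded sham. Wnt6 and Wnt10a lie next to each other on chromosome 1 in the same direction (Wnt10a at 74791516 to 74804179). At 35 days Lgr6 fell (-1.53 ± 0.37, adjusted p = 0.0101) and Lrp5 rose (0.61 ± 0.16, adjusted p = 0.0188), 2 of 42 members beside 7.2% of all genes (6.37% higher and 0.821% lower). Lgr6 was at 2.67, 4.66 and 3.27 CPM with Nkx6.1 and Lrp5 at 15.1, 18.2 and 25.0 CPM, neither overlapping sham, and fibroblast (6 of 12) and macrophage and microglia markers (9 of 10) rose beside them. Without Nkx6.1 replicate 3 neither was called, and without Nkx6.1 replicate 1 or sham replicate 2 or 3 only 1 was. Dkk2 was next (2.1 ± 0.74, adjusted p = 0.0885). Against injured controls at 35 days 0 of 42 members were called, beside 0% of all genes. DESeq2 also called 0 members. At an unadjusted p under 0.05 by edgeR's test there were 12 members, beside 2006 of all genes. The smallest p were those of Sfrp4 (-3.31 ± 0.91, adjusted p = 0.326), Wnt11 (-1.95 ± 0.64, adjusted p = 0.335) and Dkk2 (-1.75 ± 0.58, adjusted p = 0.335).

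**Figure D5:**
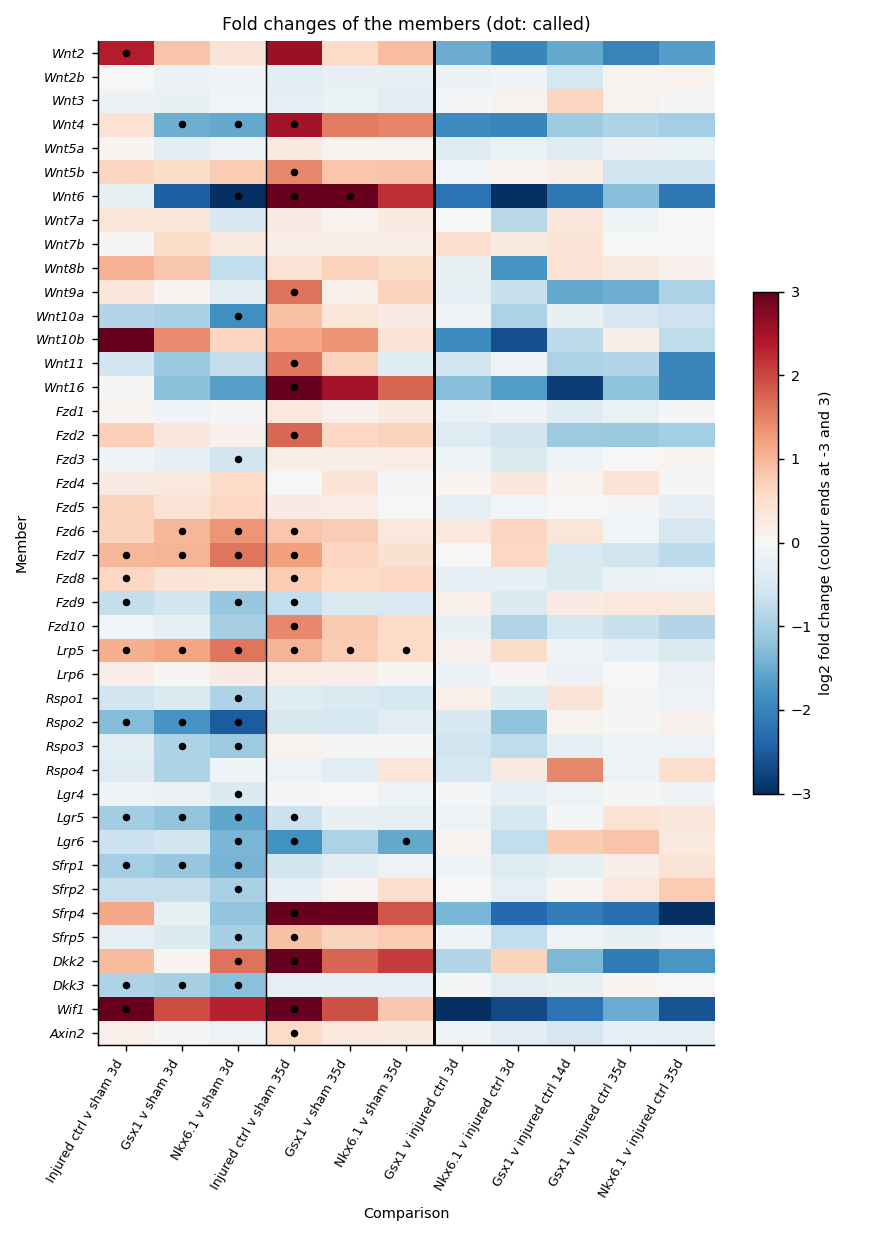
Log2 fold changes of the 42 members in 11 comparisons, red for higher and blue for lower with colour ending at -3 and 3, and a dot where the member passed the test. The first 6 columns are set against sham and the last 5, which hold no dot, against injured control; Lrp5 carries a dot in all 6 of the former.

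Other genes of the pathway were taken from lists of textbook components. Of 28 components of the cytoplasm and nucleus, 5 rose and 6 fell at 3 days after injury and 8 rose and 5 fell at 35 days, in injured control against sham cords. Of all genes 35.5% were called at 3 days (19.5% higher and 16% lower) and 36.8% at 35 days (21.3% higher and 15.5% lower), shares that also serve for the lists that follow. At 3 days Tle3, a co-repressor of TCF factors, rose by 0.63 ± 0.13 and beta-catenin itself (Ctnnb1) by 0.43 ± 0.1 on the log2 scale, and the kinase gene Gsk3a and the scaffold gene Apc2 fell by 0.56 and 0.72 (adjusted p = 0.000717 to 0.00838). At 35 days Lef1 (1.1 ± 0.25), Tcf7 (1.19 ± 0.3), Tle3 (0.53) and Ctnnb1 (0.34) rose, with adjusted p of 0.00187 to 0.00585. Of 15 textbook targets of beta-catenin, 7 rose and 0 fell at 3 days, and 8 rose and 0 fell at 35 days. At 3 days these included Cd44 (2.94 ± 0.32), Myc (2.47 ± 0.3), Ccnd1 (1.6 ± 0.28) and Apcdd1 (0.89 ± 0.13). At 35 days Cd44 rose by 2.31, Myc by 1.17 and Lef1 by 1.1, and Wisp2, a matrix protein gene, was at a mean of 67.9 CPM in injured control and 0.135 CPM in sham cords (adjusted p = 3.73e-06). Macrophage and microglia markers rose at both times (9 of 10), and their part in the rise of the targets was not tested. The median log2 fold change of the 15 targets was 0.86 at 3 days and 1.1 at 35 days, beside 0.01 and 0.04 over all genes.

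Among 21 tested genes for Wnt secretion and extracellular control, 6 rose and 3 fell at 3 days, and 8 rose and 3 fell at 35 days. Apcdd1, an inhibitor at the membrane, and Kremen1, a receptor for Dickkopf proteins, both rose by 0.89 at 3 days (adjusted p = 1.64e-05 and 2.85e-05). Gpr124, a co-activator of Wnt7 signals in vessels, rose by 0.91 ± 0.27 (adjusted p = 0.00972). Porcn, which attaches the lipid to Wnt proteins, fell by 0.51 ± 0.12 (adjusted p = 0.00278). At 35 days Trabd2b, a metalloprotease that inactivates Wnt proteins, rose by 4.1 ± 0.7 (adjusted p = 8.6e-05), Wls, the carrier that brings Wnt proteins to the surface, by 0.88 ± 0.17 (adjusted p = 0.000374), Gpr124 by 1.07 and Apcdd1 by 0.51. Of 16 genes of planar polarity and other Wnt receptors, 6 rose and 2 fell at 3 days, and 4 rose and 2 fell at 35 days. Prickle3, a polarity protein, rose by 1.94 ± 0.4 and 2.05 ± 0.4 (adjusted p = 0.000682 and 0.00034), and the glypican gene Gpc6 by 0.95 and 0.88. Ryk, a Wnt receptor of axons, and Vangl1 rose by 0.6 and 0.82 at 3 days, while Gpc4 rose by 0.77 and Prickle2 fell by 0.54 at 35 days. These counts moved with the libraries and the fit. At 3 days a fit with low Xist only leaves 1 sham library, so its counts are not given. Without injured control replicate 1 the counts at 3 days were 5 for the cytoplasm and nucleus, 4 for secretion and 5 for polarity. Without any 1 of sham replicates 2 and 3 and injured control replicates 2 and 3 the cytoplasm and nucleus had 6 or 7. At 35 days that list had 3 with only the groups compared, beside 2195 of all genes. With low Xist only it had 1 and the targets had 3, beside 1281 of all genes. The main fit at 35 days called 6009 of all genes. Without injured control replicate 4 the counts at 35 days were 5 higher and 2 lower for the cytoplasm and nucleus, 6 and 0 for the targets, 4 and 0 for secretion and 3 and 0 for polarity. For the fits with a library left out the number of all genes called is not given here, so a change particular to the lists is not shown. Lef1, Tcf7, Apcdd1, Notum, Nkd1, Rnf43 and Znrf3 stand in 2 of these lists.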

How the data were processed

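The authors deposited raw read counts per gene symbol from paired-end RNA-seq of mouse spinal cord, 1 column for each of the 32 libraries, without normalization. Per the submitters' processing notes the tools were HISAT2, SAMtools, HTSeq and DESeq2, and the builds mm10 and GRCm38, with no version or role; the sources used here do not give the strand setting or how multiply mapped reads were counted. Genes were tested with edgeR 4.0.16 (R 4.3.3), quasi-likelihood F test, TMM scaling and filterByExpr (at least 10 counts, at least 15 in total; 16314 genes kept), with all 10 groups in 1 model (22 residual degrees of freedom) and Benjamini-Hochberg adjustment over all genes tested within each of 15 comparisons. Errors of log2 fold changes are standard errors. Nothing in the labels says that replicates are separate animals. In 5 groups replicates differ in Xist and Ddx3y, so those libraries are not all repeats of 1 animal; in the others the p-values cover library-to-library spread, which may be technical. Coordinates and exon lengths are from GENCODE M21 (GRCm38). Every member called is named, or else the 3 with the smallest p; pathway lists name up to 4 called genes. The members and lists were chosen with earlier results of these data known. Alternatives were DESeq2 1.42.0 size factors and Wald test, no filter, only the groups compared, a replicate block, Xist as a covariate, libraries left out by sex markers, and each library left out.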

Additional observations from a re-analysis of the deposited data

Results flagged for a closer look

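In groups of 4 libraries, single libraries stood far from the others of their group in 8 of 84 tests of this kind (42 members in 2 groups). The cutoff flags about 1 in 20 groups of independent, normally distributed values. These are CPM of 42 members in the same libraries, so that rate is no yardstick for the 8. Among injured control cords at 35 days replicate 4 stood above the rest for Wnt4 (31.6 CPM, others 4.18 to 8.26), Wnt11 (5.73 CPM, others 1.03 to 1.62), Wnt10a (2.6 CPM, others 1.19 to 1.42) and Rspo3 (9.15 CPM, others 4.35 to 5.1). That library also held the highest summed fibroblast markers and the lowest summed neuronal markers of its group. Replicate 1 of the same group stood above the rest for Wnt7a (33.7 CPM, others 16.4 to 18.8). Among Gsx1 cords at 35 days single libraries were low for Fzd6 (replicate 4, 14.4 CPM, others 17.0 to 17.3), Rspo1 (replicate 2, 2.05 CPM, others 3.56 to 3.82) and Sfrp5 (replicate 3, 18.2 CPM, others 24.8 to 25.9). What sets these libraries apart was not tested.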

How the results depend on the processing

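Over 901 alternatives of 63 member results past the threshold, 759 kept direction and call, 142 kept direction only, and 0 reversed. Counts of members called that moved by over 1.5 times were as follows. Brackets hold the number of all genes called in the same fit. For injury at 3 days the fit with low Xist only leaves 1 sham library, and its count is not given. For injury at 35 days (main fit 6009), 9 of 37 with only the groups compared (2195), 11 without libraries of mixed sex (3178), 9 with low Xist only (1281). For the injury-by-time interaction (main fit 59), 1 by DESeq2's Wald test (230). For Gsx1 against sham at 35 days (main fit 1599), 5 by DESeq2 (2054) and 11 of 37 with only the groups compared (3297). Also for this comparison, 6 without libraries of mixed sex (1962), 5 with Xist as covariate (1748) and 1 with a replicate block (1121). For Nkx6.1 against sham at 35 days (main fit 1174), 5 of 35 with only the groups compared (1659). For Nkx6.1 against injured control at 3 days (main fit 55), 5 by DESeq2 (462) and 2 without libraries of mixed sex (111). Also for this comparison, 1 with Xist as covariate (112), 1 with a replicate block (105) and 3 with low Xist only (568). For injured controls at 14 against 3 days (main fit 500), 4 by DESeq2 (987) and 4 of 39 with only the groups compared (1790). Also for this comparison, 3 without libraries of mixed sex (680) and 2 with low Xist only (248). For sham at 35 against 3 days (main fit 1), 4 of 35 with only the groups compared (633), namely Wnt4, Wnt6, Lgr6 and Fzd3. The cause was not tested, beyond fewer libraries or genes entering.

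With each library left out, counts ran from 7 to 11 and 11 to 23 (injury at 3 and 35 days), 0 to 1 (interaction), 6 to 10 and 1 to 3 (Gsx1 against sham at 3 and 35 days), 15 to 23 and 0 to 2 (Nkx6.1 against sham), 0 to 0 (Gsx1 against injured control at 3 and 14 days), 0 to 3 (at 35 days), 0 to 10 (Nkx6.1 against injured control, 3 days), 0 to 0 (the same, 35 days), 1 to 2 and 0 to 1 (injured controls, 14 against 3 and 35 against 14 days) and 0 to 0 (sham). The number of all genes called in the same fits is not given here, so these ranges do not show a change particular to the members. Correlations between the deviations of same-numbered libraries from their group means, over 43 pairs, ran from -0.602 to 0.44. All pairs exceeded 0.1 in 1 of 14 comparisons, Gsx1 against sham at 3 days. With a replicate block the counts were 9 and 15 (injury at 3 and 35 days), 10 and 1 (Gsx1 against sham at 3 and 35 days), 19 and 2 (Nkx6.1 against sham) and 1 (Nkx6.1 against injured control at 3 days). Of all genes that block called 1121 for Gsx1 against sham at 35 days and 105 for Nkx6.1 against injured control at 3 days. For the other comparisons that number is not given here.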
